A study of Mus musculus with 16 samples.

Results

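The renin-angiotensin-aldosterone system was described here through 6 genes of the mouse heart, taken by name from the 55487 genes counted in each library. They are Agt, which encodes the precursor angiotensinogen, the peptidases Ace and Lnpep, the angiotensin II receptor gene Agtr1a, the prorenin receptor gene Atp6ap2 and the mineralocorticoid receptor gene Nr3c2. RNA came from C57Bl/6J mice at 24 months of age, taken from the mid section of the left ventricle, in 8 libraries of multiparous mice, each with more than 3 pregnancies, and 8 libraries of virgin mice. No genetic change and no treatment was given to either group. The names of 4 multiparous libraries carry the code P, those of the other 4 the code MP, and those of all 8 virgin libraries the code AA. The labels do not explain the codes, and parity and code cannot be told apart between multiparous and virgin hearts. The labels do not say outright that each library is a separate mouse, so the p-values refer to variation among libraries, which may be technical.

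In this system renin cuts angiotensinogen to angiotensin I, and angiotensin-converting enzyme (ACE) turns that into angiotensin II, which acts on heart muscle, fibroblasts and vessels through the AT1 receptor. Aldosterone, released from the adrenal cortex under angiotensin II, acts through the mineralocorticoid receptor, which in heart muscle is mostly occupied by glucocorticoids because the enzyme that would inactivate them is scarce there. In pregnancy, oestrogen raises the liver's output of angiotensinogen, and the enzyme encoded by Lnpep, known as oxytocinase in the placenta, breaks down oxytocin in the mother's blood.

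Total gene counts per library lay between 34560606 and 58890976 in 15 libraries and reached 228325238 in virgin 8. The summed level of 10 cardiomyocyte markers was 65040 to 94630 CPM (counts scaled to library size with TMM factors, the trimmed mean of M-values) over the 16 libraries, with none of the markers at 0. Transcripts of other organs also varied between libraries. The sum of 20 kidney tubule genes was 14.7 to 40.8 CPM in multiparous and 23.9 to 148 CPM in virgin libraries, and 15 liver genes summed to 4.99 to 369 and 4.28 to 230 CPM. Among the liver genes, Alb, which encodes serum albumin, averaged 63.3 CPM in multiparous and 4.54 CPM in virgin libraries. Among the kidney genes, Umod, which encodes uromodulin, averaged 0.328 and 3.68 CPM. In whole tissue, a change in the number of cells of a type and a change in RNA per cell cannot be told apart.

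The sequences before the start sites of Agt, Lnpep and Ace are shown because Agt was the most variable member and Lnpep the most abundant and least variable, while Ace has a pair of starts whose transcripts the gene count adds together. They are from RefSeq promoters of build GRCm38.p6, each showing the 250 bases before the start, read 5′ to 3′ on the gene's strand. Capitals mark 3 motifs on either strand. The core of the first, the TATA box, was searched as TATAAA. The GC box was searched as GGGCGG, and the CCAAT box by the letters of its name. Agt lies at chr8:124569707-124569956 on the minus strand, Lnpep at chr17:17624490-17624739 on the minus strand, the upstream Ace start at chr11:105967698-105967947 and the internal Ace start at chr11:105974939-105975188, both on the plus strand.
Agt: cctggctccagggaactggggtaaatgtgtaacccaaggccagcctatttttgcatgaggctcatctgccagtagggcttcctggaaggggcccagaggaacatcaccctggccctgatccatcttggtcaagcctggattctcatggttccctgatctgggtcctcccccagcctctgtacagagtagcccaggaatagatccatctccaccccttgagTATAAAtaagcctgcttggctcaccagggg
Lnpep: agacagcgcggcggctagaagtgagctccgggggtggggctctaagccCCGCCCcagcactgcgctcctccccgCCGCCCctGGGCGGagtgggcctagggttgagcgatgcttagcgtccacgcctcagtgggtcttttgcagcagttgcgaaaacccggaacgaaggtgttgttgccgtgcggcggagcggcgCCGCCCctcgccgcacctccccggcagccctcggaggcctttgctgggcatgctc
Ace upstream start: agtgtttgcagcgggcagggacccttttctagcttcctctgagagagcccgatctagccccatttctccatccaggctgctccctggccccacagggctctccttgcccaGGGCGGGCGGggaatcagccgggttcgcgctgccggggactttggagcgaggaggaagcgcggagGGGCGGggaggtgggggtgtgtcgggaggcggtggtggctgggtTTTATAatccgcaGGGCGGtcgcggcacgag
Ace internal start: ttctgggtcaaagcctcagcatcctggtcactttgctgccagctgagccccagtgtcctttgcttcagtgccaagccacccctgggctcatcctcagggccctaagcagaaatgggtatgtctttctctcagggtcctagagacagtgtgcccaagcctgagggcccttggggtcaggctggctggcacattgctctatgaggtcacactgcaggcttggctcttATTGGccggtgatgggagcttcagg
These motifs were searched on both strands of these bases and the 50 bases after each start. TATAAA was present in 13.6% of 32851 promoters of that length, CCAAT in 37.4% and GGGCGG in 35.7%. Agt had the TATA letters and neither of the other motifs. Lnpep had GC boxes alone. The upstream Ace start, that of the somatic enzyme, had GC boxes and, in the bases shown, TATA letters on the opposite strand. The internal start, known for the testis form, had CCAAT alone. Counting the 300 bases, the Agt promoter held 1 CpG and the Lnpep promoter 30, where the median promoter held 7. The promoters of Atp6ap2 and Nr3c2 held 24 and 17 CpG, and both had CCAAT and GC box letters and no TATA letters. Agtr1a had no entry. A match describes the letters and not a site in use.

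Per length of transcript, the 6 genes spanned a wide range. Lnpep was the most abundant at 31.5 ± 2.19 RPKM (CPM divided by the exonic length in kilobases, SD, n = 16 libraries), then Agtr1a at 17.4 ± 1.41, Ace at 14.3 ± 1.76, Atp6ap2 at 7.50 ± 0.587, Nr3c2 at 5.78 ± 0.702 and Agt at 1.95 ± 0.870 RPKM. The order was not the same in every library. Agtr1a stood above Ace in 14 of 16 libraries and Atp6ap2 above Nr3c2 in 15 of 16, while each of the other neighbours kept its place in 16 of 16. The spread was also uneven, since the coefficient of variation over the 16 libraries was 44.7% for Agt, 12.3% for Ace, 12.2% for Nr3c2, 8.10% for Agtr1a, 7.82% for Atp6ap2 and 6.97% for Lnpep. Counting error at the mean count was 7.14% for Agt, with 89 to 591 counts per library, 3.0% for Atp6ap2 and 0.634% for Lnpep.

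**Figure D1:**
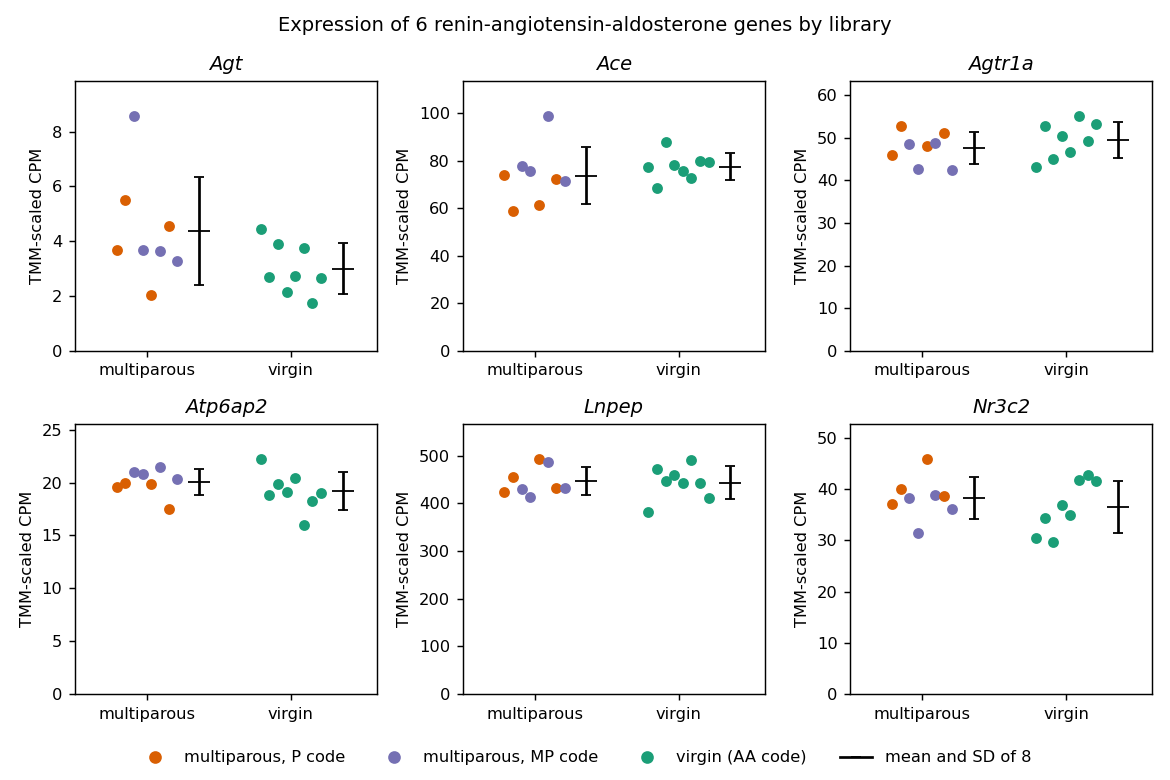
Level of each of the 6 genes in each library (y axis, TMM-scaled CPM from 0), with points coloured by library code and bars giving the mean and SD of 8 libraries. Multiparous and virgin points overlap for all 6 genes, and the highest Agt point, 8.56 CPM, is multiparous 3.

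The main comparison asked how the hearts of aged mice with a history of several pregnancies differ from those of virgin mice. Of the 6 genes, 4 had a higher and 2 a lower fitted level in multiparous hearts, and 0 passed an adjusted p of 0.05 (edgeR quasi-likelihood test, Benjamini-Hochberg adjustment over all genes tested). Among all genes tested, 2 of 17813 passed, or 0.0112%, so that few calls were made anywhere. The CPM ranges of the groups overlapped for all 6 members, where they were apart for 0.0337% of genes. At an unadjusted p under 0.05 the test held 1 member, Agt, and 1447 genes in all, or 8.12%. DESeq2 called 128 genes and 0 members. The median log2 fold change was 0.04 over the members and -0.003 over all genes tested.

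Agt (ENSMUSG00000031980, chr8:124556534-124569706, minus strand, GRCm38) encodes angiotensinogen, the only substrate of renin and the source of every angiotensin peptide. In multiparous hearts its level was lowest in multiparous 5 at 2.02 CPM, had a median of 3.67 CPM and was highest in multiparous 3 at 8.56 CPM. In virgin hearts it ran from 1.74 CPM in virgin 7, with a median of 2.705 CPM, to 4.43 CPM in virgin 1. The groups overlapped, with 7 of 8 multiparous libraries above the virgin mean and 3 above the highest virgin library. The means were 4.36 ± 1.97 and 3.00 ± 0.929 CPM (SD, n = 8 each), a log2 fold change of 0.54 (SE 0.24, 95% interval 0.03 to 1.05) or 1.46-fold, with an edgeR adjusted p of 0.578. Agt did not pass the test, and 1 library carried much of the difference, since without multiparous 3 the log2 fold change was 0.33 (edgeR adjusted p = 0.653).

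Sums of liver and brain genes, from organs known to make angiotensinogen, were unequal among the libraries. Multiparous 3 also had the highest sum of 10 brain genes, 87.5 CPM, where the others ranged from 56.7 to 72.2 CPM. No library fell below 56.7 CPM, and 4 of the 10 genes had enough counts to be tested between multiparous and virgin hearts. Against virgin, 9 were tested in MP-coded libraries, 9 higher and 0 called, and 4 in P-coded libraries, 2 higher. The filter keeps genes with enough counts in the libraries compared, so the direction of the added genes is not independent of it. The brain sum alone does not show brain tissue. Multiparous 2 and multiparous 7, next in Agt at 5.50 and 4.57 CPM, had the highest liver sums of all libraries, 369 and 312 CPM. Virgin 8, with a liver sum of 230 CPM, had 2.65 CPM of Agt, close to the virgin median. By the virgin mean of Alb given above, most of that sum came from other liver genes. Liver sums can thus differ in make-up between libraries. Without multiparous 2, multiparous 3 and virgin 8, the highest of their groups in liver or brain transcripts, the Agt log2 fold change was 0.19 (edgeR adjusted p = 0.864). This set, chosen after seeing the data, holds the pair of libraries with the most Agt and leaves in multiparous 7, so a lower value followed from the choice. With the kidney sum as a covariate it was 1.12 (edgeR adjusted p = 0.490), and with kidney, liver and brain sums 0.89 (edgeR adjusted p = 0.953). All 8 multiparous libraries had a kidney sum below the virgin median. The kidney covariate thus overlaps with the group, and these fits cannot fully separate them. The part of these transcripts in the Agt levels was not tested.

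**Figure D2:**
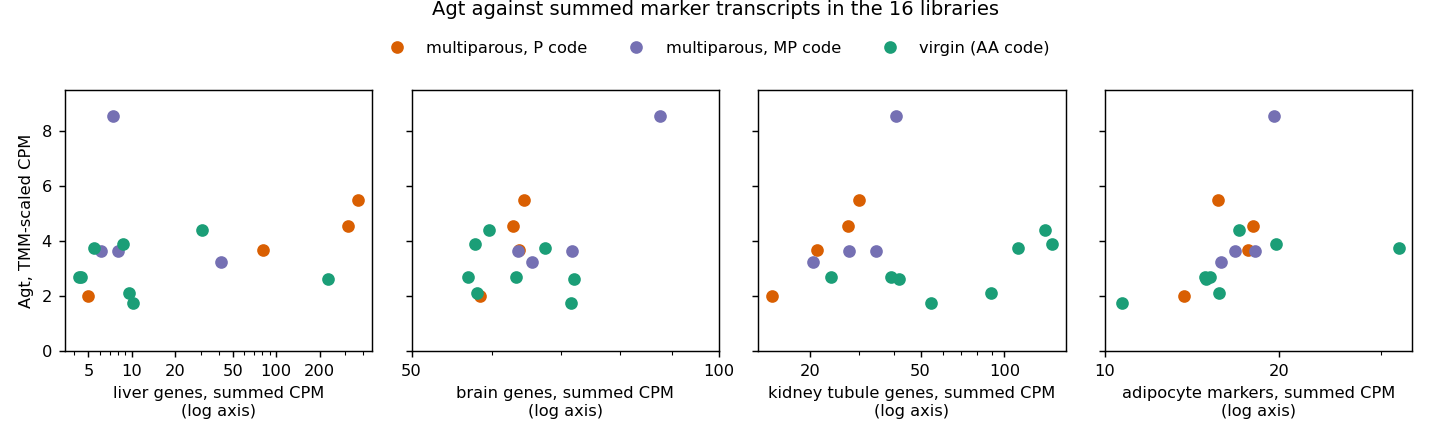
Agt level in each library (y axis, TMM-scaled CPM) against the summed CPM of liver genes, brain genes, kidney tubule genes and adipocyte markers (x axes, log scale), coloured by library code. The highest Agt point, multiparous 3 at 8.56 CPM, has the highest brain sum and a liver sum of 7.34 CPM, and the 2 points at 5.50 and 4.57 CPM have the highest liver sums.

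Ace (ENSMUSG00000020681, chr11:105967945-105989964, plus strand) encodes the endothelial enzyme that forms angiotensin II and inactivates bradykinin. Its lowest multiparous value was 58.9 CPM in multiparous 2, the median 73.0 CPM and the highest 98.8 CPM in multiparous 6. Virgin values ran from 68.5 CPM, with a median of 77.7 CPM, to 88.1 CPM. The virgin range lay inside the multiparous range, which was the wider of the pair. The means were 73.8 ± 12.1 and 77.4 ± 5.71 CPM (SD, n = 8 each), with a log2 fold change of -0.07 (SE 0.08, 95% interval -0.24 to 0.10, edgeR adjusted p = 0.878). An antisense gene, Gm11651, shares 295 of the 5287 exonic bases of Ace and had a mean of 0.0031 CPM. The strand setting of the counting is not given in the sources used here.

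Lnpep (ENSMUSG00000023845, chr17:17521410-17625050, minus strand) encodes insulin-regulated aminopeptidase, a membrane enzyme of GLUT4 vesicles that binds angiotensin IV and cleaves oxytocin and vasopressin. In multiparous hearts it ran from 414 CPM, with a median of 433 CPM, to 493 CPM. In virgin hearts it ran from 381 CPM in virgin 1, with a median of 446 CPM, to 490 CPM. The ranges nearly coincided. Means were 446 ± 29.3 and 444 ± 34.6 CPM (SD, n = 8 each), a log2 fold change of 0.01 (SE 0.05, 95% interval -0.10 to 0.12, edgeR adjusted p = 0.986). That interval spans folds of 0.933 to 1.09, the narrowest among the 6 genes.

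Agtr1a (ENSMUSG00000049115, chr13:30336441-30382867, plus strand) encodes the main AT1 receptor of rodents. Multiparous values ran from 42.5 CPM in multiparous 8, with a median of 48.4 CPM, to 52.8 CPM, and virgin values from 43.2 CPM, with a median of 49.8 CPM, to 55.1 CPM. Of the multiparous libraries 6 of 8 lay below the virgin mean, and the ranges overlapped over most of their length. The log2 fold change was -0.06 (SE 0.06, 95% interval -0.17 to 0.06, edgeR adjusted p = 0.852), from means of 47.6 ± 3.67 and 49.4 ± 4.20 CPM (SD, n = 8 each).

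Atp6ap2 (ENSMUSG00000031007, chrX:12587801-12617049, plus strand) encodes a protein that binds prorenin and renin and also serves as an accessory subunit of the vacuolar proton pump (V-ATPase). It ranged from 17.5 CPM in multiparous 7, with a median of 20.1 CPM, to 21.4 CPM in multiparous hearts. In virgin hearts it ranged from 16.01 CPM in virgin 6, with a median of 19.1 CPM, to 22.2 CPM in virgin 1. The virgin range contained the multiparous one, although 7 of 8 multiparous libraries were above the virgin mean. The means were 20.1 ± 1.20 and 19.2 ± 1.79 CPM (SD, n = 8 each) and the log2 fold change 0.06 (SE 0.06, 95% interval -0.06 to 0.18, edgeR adjusted p = 0.836).

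Nr3c2 (ENSMUSG00000031618, chr8:76899442-77245012, plus strand) encodes the mineralocorticoid receptor, a nuclear receptor bound by aldosterone and by corticosterone. Its values were 31.4 CPM at the lowest, 38.5 CPM at the median and 45.8 CPM at the highest in multiparous hearts, against 29.7, 35.9 and 42.7 CPM in virgin hearts. Of the 8 multiparous libraries 6 lay above the virgin mean and 1, multiparous 5, above every virgin library. The means were 38.3 ± 4.04 and 36.6 ± 5.12 CPM (SD, n = 8 each), a log2 fold change of 0.07 (SE 0.08, 95% interval -0.11 to 0.24, edgeR adjusted p = 0.889). The opposite-strand gene Gm10649 shares 247 of the 6474 exonic bases of Nr3c2 and had a mean of 0.230 CPM.

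**Figure D3:**
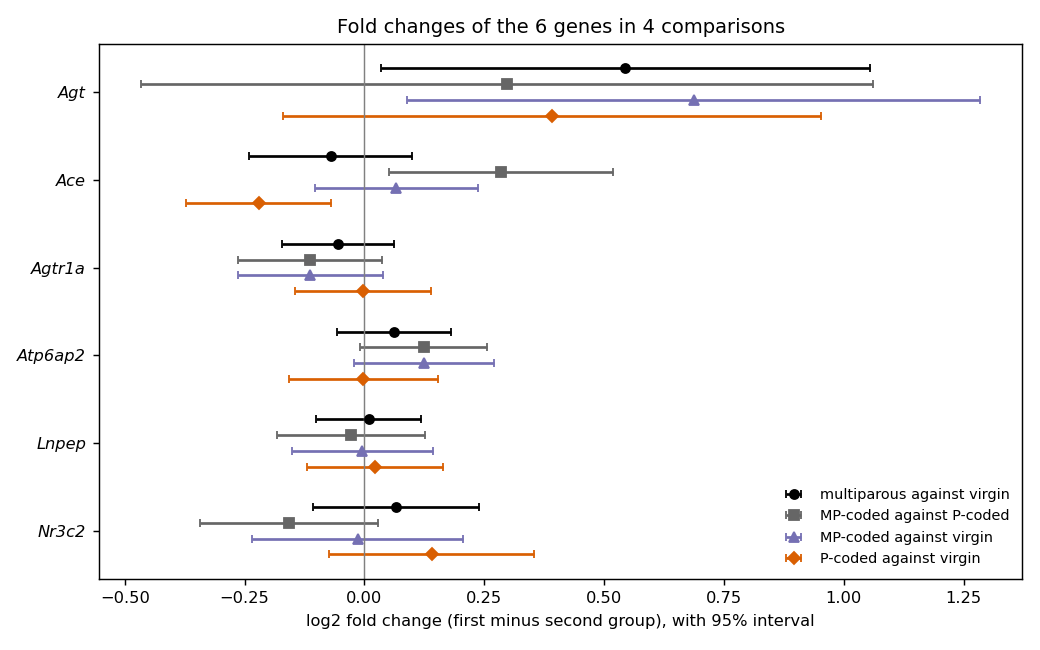
Log2 fold change of each gene with its 95% interval (x axis) in 4 comparisons, multiparous against virgin, MP-coded against P-coded, and each code against virgin. For multiparous against virgin only the Agt interval, 0.03 to 1.05, leaves out 0, and the other 5 lie within -0.24 and 0.24.

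The codes P and MP in the multiparous library names, 4 libraries each, were compared because other genes of these hearts differ with them. MP-coded against P-coded, 0 of the 6 members passed the test, where 22 of 18123 genes did, or 0.121%. Ace was 80.9 ± 12.2 CPM in MP-coded and 66.6 ± 7.50 CPM in P-coded libraries (SD, n = 4 each), with all 4 MP-coded libraries above the P-coded mean and 3 above the highest P-coded one. The log2 fold change was 0.28 (95% interval 0.05 to 0.52, edgeR adjusted p = 0.348). Without multiparous 6, the highest MP-coded library, it was 0.17 (edgeR adjusted p = 0.435). Multiparous 6 also had the highest sums of fibroblast markers, 2408 CPM, and macrophage markers, 399 CPM, of all libraries. Virgin 1 had nearly the same macrophage sum, 397 CPM, with 77.4 CPM of Ace. Multiparous 8, next in fibroblast markers at 2164 CPM, had 71.4 CPM of Ace, the lowest of the MP-coded libraries. The part of these cell types in the Ace level was not tested.

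Atp6ap2 ranged from 20.3 to 21.4 CPM in MP-coded and from 17.5 to 19.96 CPM in P-coded libraries. These ranges did not overlap, as was the case for 1065 of 18123 genes, or 5.88%. The log2 fold change was 0.12 (95% interval -0.01 to 0.26, edgeR adjusted p = 0.484). Both receptor genes had lower means in the MP-coded libraries. Agtr1a was 45.6 against 49.5 CPM (edgeR adjusted p = 0.579) and Nr3c2 36.1 against 40.5 CPM (edgeR adjusted p = 0.527), with all 4 MP-coded libraries below the P-coded mean in each case. Agt had a mean of 4.78 CPM in MP-coded and 3.94 CPM in P-coded libraries. Its log2 fold change of 0.30 (edgeR adjusted p = 0.815) became -0.15 without multiparous 3. Lnpep means were 442 and 451 CPM (edgeR adjusted p = 0.923).

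Each code was also set against the 8 virgin libraries, which both comparisons share. Against virgin, 0 of 6 members passed in MP-coded libraries, where 0 of 18442 genes passed (0.0%) and 1596, or 8.65%, had an unadjusted p under 0.05. In P-coded libraries 0 of 6 passed, where 97 of 18612 genes did (0.521%). Among those called were 11 of 19 tested kidney tubule genes, as lower, and 9 of 14 tested liver genes, as higher. Ace had a log2 fold change of 0.07 in MP-coded (edgeR adjusted p = 0.870) and -0.22 in P-coded libraries (95% interval -0.37 to -0.07, edgeR adjusted p = 0.332). All 4 P-coded libraries were below the virgin mean of Ace. For Agt the values were 0.69 (95% interval 0.09 to 1.29, edgeR adjusted p = 0.492) and 0.39 (edgeR adjusted p = 0.761), and for Nr3c2 -0.01 and 0.14.

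The rest of the system was sparsely expressed in this tissue. Of 10 other genes, 3 had enough counts to be tested, and all 3 had higher means in multiparous hearts without passing. Enpep, which encodes aminopeptidase A and turns angiotensin II into angiotensin III, was 15.5 ± 1.73 against 14.1 ± 1.89 CPM (SD, n = 8 each, edgeR adjusted p = 0.732). Mas1, which encodes the Mas receptor, was 0.568 ± 0.181 against 0.547 ± 0.174 CPM (SD, n = 8 each, edgeR adjusted p = 0.984).

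The other 7 genes had at most 22 counts in any library. Where the count is 0, up to 3 counts cannot be told from none, which is 0.0131 to 0.0868 CPM by library. Ren1, the renin gene, had 0 counts in 11 of 16 libraries and at most 7, in virgin 3, at 0.195 CPM. Cyp11b2, the aldosterone synthase gene, had 0 counts in all 16 libraries, and Cyp11b1 at most 1. Agtr1b, the other AT1 receptor gene of rodents, had at most 8 counts, Agtr2, which encodes the AT2 receptor, at most 3 and Mrgprd, a receptor gene for alamandine, at most 1. Hsd11b2, whose enzyme inactivates glucocorticoids in mineralocorticoid target cells, had at most 22 counts and reached 0.306 CPM in virgin 3 and 0.251 CPM in virgin 6. Virgin 3 had the highest kidney sum, 148 CPM, and virgin 6 had 112 CPM. The match was not complete. Virgin 1, with a kidney sum of 139.5 CPM, had 0.104 CPM of Hsd11b2, and virgin 4, with 89.4 CPM, had 0 counts. Virgin 6 had 0 counts of Ren1. The part of kidney transcripts in the Ren1 and Hsd11b2 counts was not tested.

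The balance between the corticosteroid receptor genes was compared as a ratio in each library. The log2 ratio of Nr3c2 to Nr3c1 counts, the latter being the glucocorticoid receptor gene, averaged -1.96 ± 0.0965 for multiparous and -2.03 ± 0.197 for virgin libraries (SD, n = 8 each). The difference was 0.07, with an exact two-sided permutation p of 0.36, unchanged by adjustment over the 2 ratios computed. This ratio of counts is not corrected for length, so it compares the groups and not the genes.

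Pathway genes around the members were read from 8 further lists, against 48.6% of all tested genes with a higher fitted level in multiparous hearts. In none of these lists did a gene pass between multiparous and virgin hearts. Of 16 tested angiotensin peptidases 5 were higher and 11 lower, and the list's median was -0.03 on the log2 scale. Anpep, which encodes aminopeptidase N, had 21.1 ± 2.55 against 17.7 ± 2.30 CPM (edgeR adjusted p = 0.362), and Cpa3, the mast cell carboxypeptidase gene, 0.664 ± 0.303 against 1.10 ± 0.587 CPM (edgeR adjusted p = 0.531). All 6 tested mast cell markers, Cpa3 among them, had lower fitted levels in multiparous hearts, with sums of 8.45 to 11.9 CPM and 7.46 to 17.1 CPM. Their part in the Cpa3 level was not tested.

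Signalling genes downstream of the AT1 receptor showed 20 higher and 12 lower of 32, and a list median of 0.01. The smallest p belonged to Prkd1, encoding protein kinase D, with 8.16 ± 0.702 against 6.78 ± 0.764 CPM (edgeR adjusted p = 0.207), and to Plcb1, encoding a phospholipase C that couples to Gq, with 15.1 ± 1.49 against 13.1 ± 0.707 CPM (edgeR adjusted p = 0.236). Among the lower ones, Camk2d, a calcium-dependent kinase gene, had 205 ± 13.5 against 219 ± 16.2 CPM (edgeR adjusted p = 0.672) and Nox4, an NADPH oxidase gene, 2.14 ± 0.516 against 2.73 ± 0.858 CPM (edgeR adjusted p = 0.696).

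Genes that angiotensin II is known to induce in the heart had 6 higher and 15 lower members of 21 tested, with a median of -0.10. Nppa, the atrial natriuretic peptide gene, had the largest positive log2 fold change, 0.75 (66.6 ± 26.0 against 39.5 ± 26.4 CPM, edgeR adjusted p = 0.511). Nppb, the B-type natriuretic peptide gene, had a log2 fold change of -0.61, the opposite sign (edgeR adjusted p = 0.394). Rcan1, a calcineurin regulator gene, had 74.9 ± 11.1 against 97.2 ± 19.0 CPM (edgeR adjusted p = 0.266). Thbs1, the matrix protein gene thrombospondin 1, had 22.2 ± 4.81 against 30.3 ± 8.46 CPM (edgeR adjusted p = 0.393). Spp1, encoding osteopontin, had the lowest log2 fold change, -3.36 (0.431 ± 0.321 against 4.39 ± 6.40 CPM, edgeR adjusted p = 0.112). The virgin SD of Spp1 exceeded its mean, and kidney tubule transcripts, from an organ that also expresses Spp1, reached 148 CPM in virgin and 40.8 CPM in multiparous libraries. Their part in it was not tested.

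Partners of the mineralocorticoid receptor, from chaperones to coactivators, had 9 higher and 7 lower of 16, with a median of 0.01. Hsp90aa1, a chaperone gene of the unliganded receptor, had 95.4 ± 8.24 against 112 ± 12.3 CPM (edgeR adjusted p = 0.266). Hsd11b1, whose enzyme regenerates active glucocorticoid, had 9.69 ± 1.43 against 8.40 ± 1.28 CPM (edgeR adjusted p = 0.614). Known targets of the receptor had 10 higher and 5 lower of 15, with a median of 0.08. Nedd4l, a ubiquitin ligase gene of sodium channel turnover, had 50.7 ± 2.19 against 48.1 ± 2.05 CPM (edgeR adjusted p = 0.599). Sgk1, the kinase gene that aldosterone induces in kidney, had 55.4 ± 8.22 against 59.9 ± 4.59 CPM (edgeR adjusted p = 0.771), and Adamts1, a secreted protease gene, 37.0 ± 5.53 against 44.1 ± 4.65 CPM (edgeR adjusted p = 0.380).

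Within the multiparous hearts, 3 of 15 tested targets passed as higher in MP-coded libraries, 0 as lower and 12 did not pass, where 0.0993% of all genes were called higher. These were Zbtb16, Lcn2 and Fkbp5, which glucocorticoids also induce, at 156 against 68.2 CPM (edgeR adjusted p = 5.8e-04), 4.78 against 1.30 CPM (edgeR adjusted p = 9.0e-04) and 26.4 against 14.2 CPM (edgeR adjusted p = 0.037). The list was chosen with earlier results of these data known, so its share against that of all genes is not a test of enrichment. Transcripts of other tissues and cell types also differed between the codes. Kidney tubule genes summed to 20.6 to 40.8 CPM in MP-coded and 14.7 to 30.0 CPM in P-coded libraries, with 8 of 10 tested genes higher and 3 of them called. Mesothelial markers summed to 28.5 to 49.9 and 11.8 to 35.3 CPM, with 8 of 9 higher, and macrophage markers to 256 to 399 and 226 to 283 CPM, with 10 of 10 higher, in neither list with a gene called. Sums of liver genes went the other way, at 6.15 to 41.3 CPM in MP-coded and 4.99 to 369 CPM in P-coded libraries. Of 14 tested liver genes 0 were higher, 14 lower and 0 called. The part of these tissues and cell types in the target levels was not tested. Leaving out each of the 8 libraries in turn, Zbtb16 and Lcn2 were called 8 of 8 times and Fkbp5 3 of 8 times, with its edgeR adjusted p reaching 0.147 without multiparous 1. In the same libraries the receptor genes Nr3c2 and Nr3c1 had log2 fold changes of -0.16 and -0.16, neither passing (edgeR adjusted p = 0.527 and 0.307). Sgk1 had 59.1 against 51.7 CPM (edgeR adjusted p = 0.557).

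No gene passed among the protein partners of Atp6ap2 and Lnpep. Of 19 genes of the V-ATPase and its assembly, the complex that Atp6ap2 joins, 4 were higher and 15 lower, the list's median was -0.04, and Atp6v0b, a membrane subunit gene, had 46.9 ± 1.26 against 49.2 ± 2.33 CPM (edgeR adjusted p = 0.614). Atp6ap1, the other accessory subunit gene, had 127 CPM in both groups. Of 18 genes of the GLUT4 vesicle, the compartment of the Lnpep product, 6 were higher and 12 lower, with a median of -0.004. Lrp1, a receptor gene of these vesicles, had 407 ± 76.2 against 318 ± 39.7 CPM (edgeR adjusted p = 0.266), and Sort1, the sorting receptor gene sortilin, 55.1 ± 9.75 against 67.7 ± 8.45 CPM (edgeR adjusted p = 0.388). Slc2a4, which encodes GLUT4 itself, had 403 ± 20.3 against 424 ± 38.3 CPM (SD, n = 8 each). Of 5 kallikrein-kinin genes 3 were higher and 2 lower, and Serping1, encoding the C1 inhibitor, had 94.3 ± 24.6 against 77.7 ± 8.64 CPM (edgeR adjusted p = 0.558).

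**Figure D4:**
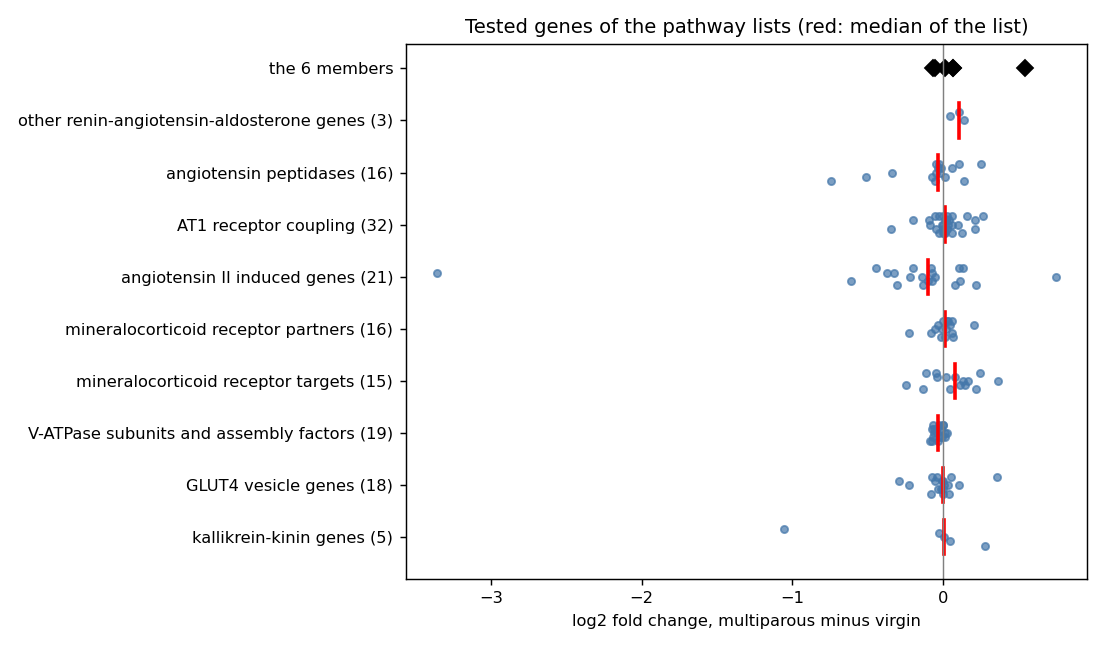
Log2 fold change, multiparous minus virgin (x axis), of each tested gene of the members and 9 pathway lists (rows, number tested in brackets), with a red line at each list's median. Medians of the lists with at least 15 genes lie between -0.10 and 0.08, and the point at the far left is Spp1 at -3.36.

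The 6 genes were also compared with each other over the 16 libraries, on log2 CPM, with 15 pairs and p adjusted over them. Agtr1a and Atp6ap2 varied in opposite directions, with a Pearson r of -0.68 (permutation p = 0.00293, adjusted 0.0439) and a Spearman rho of -0.66 (permutation p = 0.00647, adjusted 0.097). Without the 2 libraries farthest from the median of Agtr1a, multiparous 4 and multiparous 8, r was -0.70. The relation rested in part on virgin 1 and virgin 6, which had the highest and the lowest Atp6ap2, since without them r was -0.50 (permutation p = 0.0677, n = 14) and rho -0.53 (permutation p = 0.054). Within the 8 virgin libraries r was -0.84, and within the 8 multiparous ones -0.37. The code groups of 4 libraries are too small for a value of their own. Agtr1a and Nr3c2 had an r of 0.63 (permutation p = 0.00954, adjusted 0.0715), 0.77 among virgin and 0.64 among multiparous libraries. Agt had no r beyond 0.28 in size with any other member. These libraries share their scaling and dissection, and the part of library quality and of cell types in these relations was not tested.

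**Figure D5:**
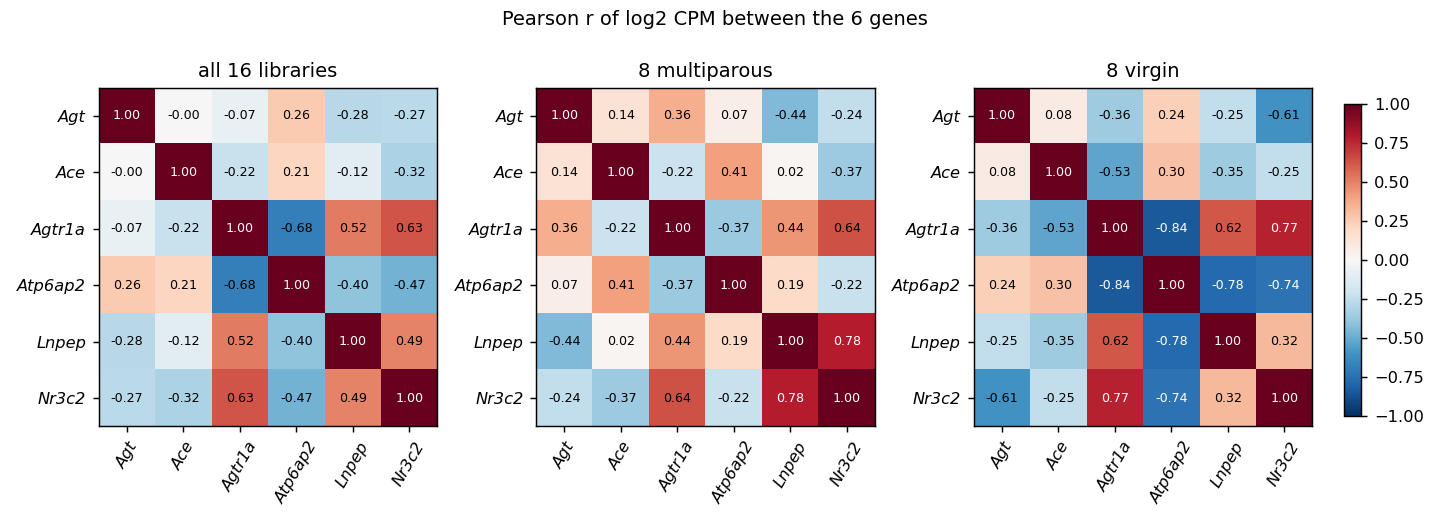
Pearson r of log2 CPM between each pair of the 6 genes over all 16 libraries, the 8 multiparous and the 8 virgin libraries (colour scale from -1 to 1). The cell of Agtr1a and Atp6ap2 is -0.68 over all libraries, -0.37 over the multiparous and -0.84 over the virgin ones.

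The genes whose log2 CPM followed each member most closely over the 16 libraries were searched among 12426 genes with a mean of at least 1 CPM, and Pearson r is given as a description. For Agt they were Mgst1, Manf and Syvn1 (r = 0.82, 0.79 and 0.78), with Syvn1 encoding a protein of the endoplasmic reticulum. For Ace they were Loxl3, Bgn and Tmem119 (0.85, 0.83 and 0.82), with Bgn encoding the matrix proteoglycan biglycan. For Agtr1a they were Rbm20, a cardiac splicing regulator gene, Zdhhc17 and Sox6 (0.88, 0.85 and 0.83). Atp6ap2 was followed by Ostf1, the ribosomal protein gene Rps19, and Dpp6 (0.82, 0.77 and 0.77), Lnpep by the large-protein genes Herc1, Nbeal1 and Vps13c (0.89, 0.87 and 0.87) and Nr3c2 by Sp4, Nhsl1 and Asxl2 (0.89, 0.86 and 0.85).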

How the data were processed

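The authors deposited raw counts per gene for each library. Per the labels' protocols, saline-perfused hearts were dissected and stranded, ribosome-depleted libraries were sequenced as read pairs. Per the submitters' processing notes the tools include Trim Galore 0.6.10, STAR 2.7.11b and HTSeq 0.11.1, with build GRCm38.p6. Reads of no gene, 26.46% to 33.13% per library, were left out. Members and lists were chosen with earlier results of these data known.

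The test was edgeR 4.0.16 under R 4.3.3 (TMM, filterByExpr, quasi-likelihood F-test on group) with Benjamini-Hochberg adjustment over all genes at 0.05. The code was tested on simulated data. The SE comes from the F statistic. Coordinates and lengths are from GENCODE M21, which matched 99.53% of identifiers. The 2 ratios, with 0.5 counts added, were compared over all 12870 assignments, and correlations with 100000 permutations. The text names all members, the other genes of the system but 1, which with its ratio is not reported here, the 3 most like genes per member, tissue markers, and from each list the genes that passed or had the smallest p, up to 3 each way. Nppb, Slc2a4, Atp6ap1, Nr3c1 and the Cpa3 and mast cell comparison were named after their values were seen. Alternatives were DESeq2 1.42.0, limma 3.58.1 voom, other scalings, filters and covariates, each code alone and leaving out libraries. Leaving out multiparous 2, multiparous 3 and virgin 8, refitting 3 receptor targets without each library, and leaving virgin 1 and virgin 6 out of a correlation were chosen after seeing the data. Depth and counting error bound precision, and floors cover counting error only.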

Additional observations from a re-analysis of the deposited data

Results flagged for a closer look

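In groups of 8 libraries, the highest or lowest value was set apart when its gap to the nearest other value was large against the group's whole range. Of 48 groups examined 10 met this. The limit used gives about 1 in 20 for independent, normally distributed values. Sums from the same libraries are not independent and some are skewed, so this count cannot show an excess over chance. Among the members the value set apart was Ace in multiparous 6, at 98.76 CPM with the next library at 77.65 CPM. Virgin 1 stood apart in summed macrophage markers (396.8 CPM), lymphocyte markers (63.92 CPM) and, as the lowest, smooth muscle and pericyte markers (1408 CPM). Virgin 6 stood apart in adipocyte markers (32.2 CPM) and blood genes (110.5 CPM), and virgin 8 in liver genes (229.8 CPM). Atrial genes were highest in virgin 7 (115.7 CPM), brain genes in multiparous 3 (87.52 CPM) and blood genes in multiparous 8 (140.6 CPM), each apart from the rest of its group. The atrial list holds Nppa, with means of 66.6 CPM in multiparous and 39.5 CPM in virgin libraries. The median atrial sums were 76.7 and 43.7 CPM, so Nppa makes up much of them. In virgin 1, Atp6ap2 and Agt were the highest and Lnpep and Agtr1a the lowest of the virgin libraries.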

How the results depend on the processing

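No member passed an adjusted p of 0.05 under any of the 28 alternatives for multiparous against virgin. Agt kept a positive log2 fold change (0.19 to 1.12) and Agtr1a a negative one in all of them. Ace changed sign with the kidney covariate (0.0269), with 3 tissue covariates (0.00944) and in MP-coded libraries alone (0.0666). Nr3c2 did so in the same 3 settings (-0.0664, -0.125 and -0.0143), Lnpep with the kidney covariate (-0.0271), without multiparous 2, multiparous 3 and virgin 8 (-0.00304), in MP-coded libraries alone (-0.00404) and when single libraries were left out (-0.0195 to 0.0318), and Atp6ap2 in P-coded libraries alone (-0.00226). The kidney sum was below the virgin median in all 8 multiparous libraries, so that covariate overlaps with the group. The cause of these sign changes was not tested. Genes called, 2 in the main test, numbered 128 with DESeq2, 56 without a filter, 0 without scaling factors, 0 with either covariate set, 1 without these 3 libraries, 0 in MP-coded and 97 in P-coded libraries alone, and 0 to 55 leaving out 1 library. Counts above the main one came without virgin 7 (55), virgin 5 (33), multiparous 3 (24), virgin 1 (23) and virgin 2 (5), and the other 11 libraries gave 0 or 1. With the replicate number as a block (replicate block) 33 were called, 7 higher and 26 lower, and Agt was 0.49. Same-numbered libraries did not vary together (r -0.106 to 0.291, best partner in 1 of 8). MP-coded against P-coded, 22 calls became 295 with DESeq2 and 3 to 197 leaving out 1 library (197 without multiparous 5, 3 without multiparous 1 or multiparous 7, 7 without multiparous 2 or multiparous 3), where Agt ran from -0.153 to 0.495 and Lnpep from -0.0829 to 0.0184. Counting error was 7.14% for Agt beside a coefficient of variation of 44.7%, and 3.0% for Atp6ap2 beside 7.82%.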

Other observations

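Levels of the 6 members were set against the summed levels of 18 marker lists, 108 relations chosen after seeing the data, and none passed an adjusted permutation p of 0.05 over the 16 libraries. The strongest Pearson r was that of Lnpep with cardiomyocyte markers, 0.759 (adjusted permutation p = 0.0896), with a Spearman rho of 0.682 (adjusted 0.155). Atp6ap2 had an r of 0.636 and a rho of 0.741 with macrophage markers (adjusted for rho 0.102). With cardiomyocyte markers it had an r of -0.54 and a rho of -0.624 (adjusted 0.307 and 0.204). Agtr1a had the opposite signs. Its r was -0.57 and its rho -0.656 with macrophage markers (adjusted 0.307 and 0.191), and 0.648 and 0.585 with cardiomyocyte markers (adjusted 0.203 and 0.261). The part of these cell types in the relation of Agtr1a and Atp6ap2 was not tested. Agt had an r of 0.549 and a rho of 0.729 with adipocyte markers (adjusted 0.307 and 0.102).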
